A study of Homo sapiens with 10 samples.

Results

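A set of 9 genes of the transforming growth factor beta (TGF-beta) pathway were followed in human cells treated with merbarone, a catalytic inhibitor of topoisomerase II. They were chosen by name as the 3 ligands (TGFB1, TGFB2 and TGFB3) and 6 direct targets of the pathway (SMAD7, PMEPA1, SKI, SKIL, TGIF1 and TGFBI). All 9 were found among the 20327 genes of each deposited table by their Ensembl identifiers. RNA was sequenced from wild-type hTERT RPE-1 cells, a telomerase-immortalised line from retinal pigment epithelium, after 48 h in medium with 0.1% serum, a condition shared by all 10 libraries. In the 30 min experiment 3 libraries had received 200 µM merbarone for 30 min and 3 had received the vehicle DMSO for 30 min. In the 2 h experiment 2 libraries had received 200 µM merbarone for 2 h and 2 were untreated, so this control lacked the vehicle. The series concerns the control of RNA polymerase II pausing by DNA supercoiling, and both experiments ask how RNA levels respond when topoisomerase II is inhibited. The labels do not say that replicates came from separate cultures, so p-values measure only the spread between these libraries.

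TGF-beta ligands are secreted in a latent form, are released in the matrix, and bind a pair of receptor kinases that phosphorylate SMAD2 and SMAD3. These SMADs join SMAD4 and bind DNA at short motifs, often beside other transcription factors. Among their first targets are genes that switch the pathway off again, such as the inhibitory SMAD7, PMEPA1, and the corepressors SKIL and TGIF1, while TGFBI encodes a matrix protein. In pigment epithelium the pathway is known for its part in the change of these cells to a mesenchymal, matrix-producing state.

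Recovered reads were 26633780 to 38225538 per library in the 30 min experiment and 11956652 to 13691014 in the 2 h experiment. The deposited unit is RPKM, reads scaled to gene length and library size, and the length used was in most genes the whole gene with its introns. Of the pigment epithelium markers, RPE65, RLBP1 and TYRP1 had only 2 to 27 reads in any library, and MITF stood at 0.218 to 0.415 RPKM. OTX2 was present at 2.35 to 4.61 RPKM, as were PMEL (3.68 to 5.07), which overlaps CDK2, and BEST1 (2.10 to 20.0), which overlaps FTH1, and the epithelial keratins KRT8 and KRT18, which overlap each other, were present in every library. Markers of leukocytes (PTPRC), muscle (DES) and neurons (RBFOX3) had at most 25 reads. Replicate 1 of both 30 min groups stood apart from replicates 2 and 3 and resembled its partner in the other group, with a correlation of 0.925 between their deviations from the group means.

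After 2 h of merbarone the RNA of 2 feedback inhibitors was about doubled and that of 1 corepressor was raised. SMAD7 stood at 2.03 times its untreated mean, PMEPA1 at 2.08 times and SKIL at 1.53 times. The ligands differed in direction: TGFB2 was higher in both merbarone libraries, while TGFB1 and TGFB3 had slightly lower means. After 30 min no gene of the 9 had moved beyond the spread between libraries.

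A pair of tests was read side by side. The first was limma on log2(RPKM + 1), restricted to genes whose mean reached 1 RPKM, with Benjamini-Hochberg adjustment over all of them and a threshold of 0.05. It tested 7 of the 9 genes at 2 h and called 2, both higher, where it called 866 of 6620 genes (13.1%) in all, 396 higher (5.98%) and 470 lower. PMEPA1 and TGFB3 were below its filter. The second was limma voom on whole reads recovered from the RPKM steps, which came out whole for 100% of the 17680 genes with a value above 0. It tested all 9 at 2 h and called 4, all higher, where it called 2079 of 13440 genes (15.5%) in all, 1186 higher (8.82%) and 893 lower. In 8 of the 9 genes the treated and untreated libraries did not overlap at 2 h. That share says little with 2 libraries a group, since 58.1% of the 13440 genes did not overlap either. The median log2 fold change was 0.23 over the 7 genes of the first test against -0.05 over all 6620 genes. It was 0.29 over the 9 genes of the second against 0.00 over all 13440. The 9 genes were chosen with earlier results of these data known, so these shares and medians are description only.

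**Figure D1:**
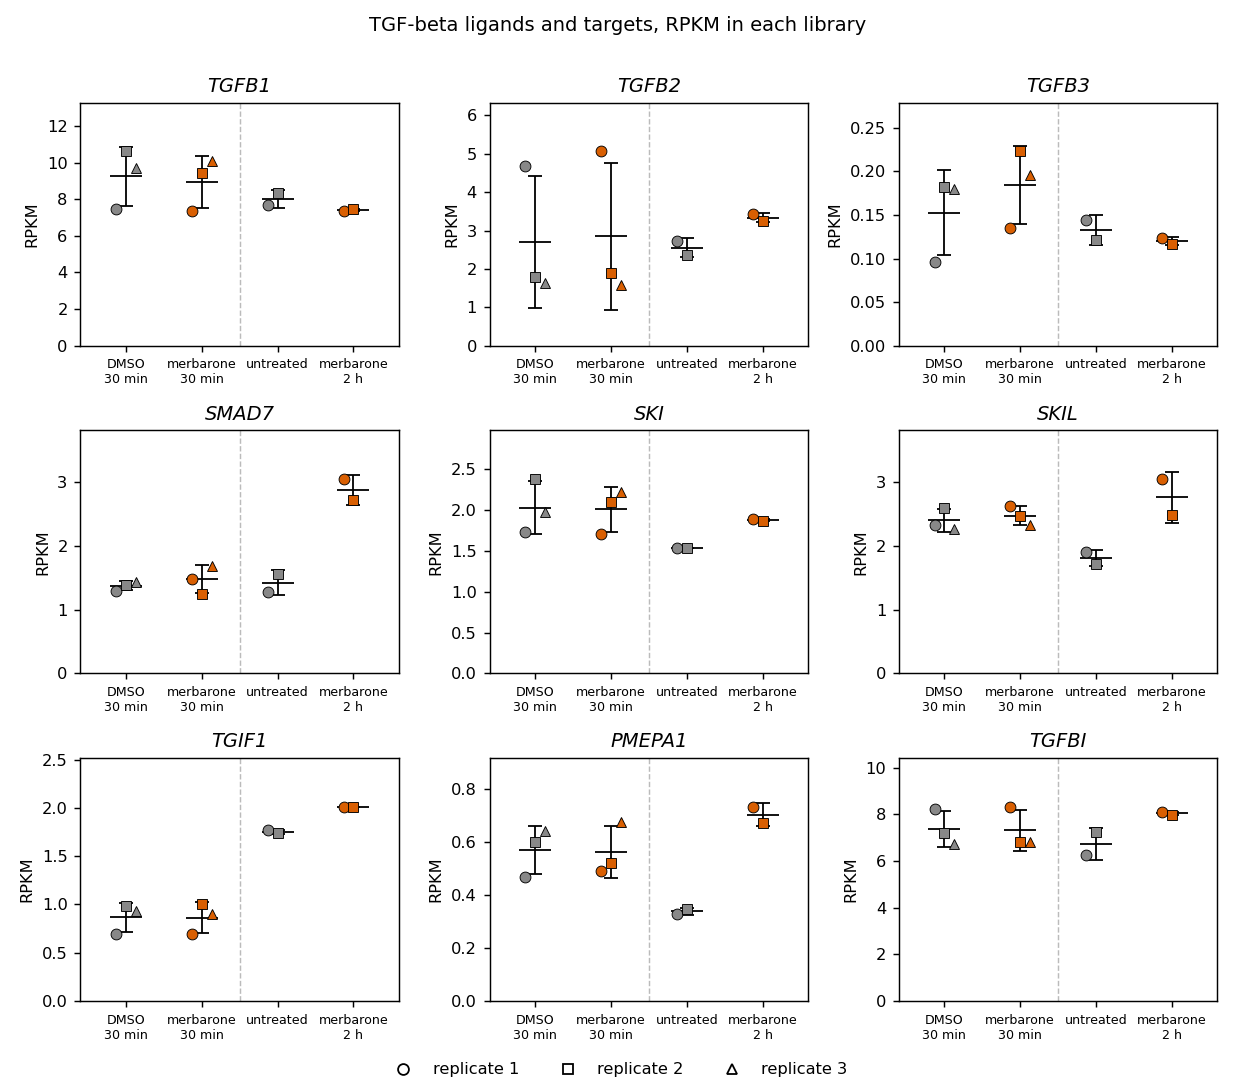
RPKM of each of the 9 genes in each of the 10 libraries (vertical axis from 0, grey for control and orange for merbarone, symbols for the replicate number), with the group mean and SD as bars. In the 2 h experiment both merbarone libraries of SMAD7 (3.04 and 2.71 RPKM) and of PMEPA1 (0.733 and 0.673) lie above both untreated libraries, and in the 30 min experiment the groups overlap in all 9 genes.

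Among the ligands, TGFB1 had the highest value of the 9 genes when levels were compared per summed exon length. Its reads may include those of 4 overlapping genes, so its rank as an RNA level is not settled. With RPKM computed again over the summed exon length of the gene, from reads that include introns, TGFB1 stood at 148 ± 25.9 (SD, n = 3) in DMSO and 129 ± 7.51 (n = 2) in untreated cells. TGFB2 followed at 44.0 ± 28.0 and 41.5 ± 4.01, and TGFB3 was the lowest of the 9 at 0.728 ± 0.232 and 0.633 ± 0.0801. TGFBI (33.4 ± 3.49 in DMSO) and SKI (24.7 ± 3.97) lay below TGFB2, and in DMSO the libraries of TGFB2 and TGFBI overlapped. On the deposited whole-gene RPKM the order of TGFB2 and TGFBI was the reverse, at 2.70 ± 1.72 and 7.37 ± 0.771 in DMSO and 2.55 ± 0.247 and 6.75 ± 0.684 in untreated cells. After 2 h of merbarone TGFBI, at 8.04 ± 0.0705 RPKM, also lay above TGFB1, at 7.42 ± 0.0561. In untreated cells SKI, at 1.53 ± 0.00244 RPKM, lay below SKIL at 1.81 ± 0.129 and TGIF1 at 1.75 ± 0.0239. Per summed exon length in DMSO, SKIL at 11.6 ± 0.847 and SMAD7 at 10.7 ± 0.551 also overlapped. So did PMEPA1 at 6.28 ± 0.988 and TGIF1 at 5.00 ± 0.868. In the 2 h merbarone libraries SMAD7 stood at 22.5 ± 1.85 on this scale and its libraries overlapped those of SKI at 22.9 ± 0.184. In untreated cells SMAD7, at 11.1 ± 1.56, overlapped TGIF1 at 10.1 ± 0.137, and SKI stood above both at 18.7 ± 0.0295.

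**Figure D2:**
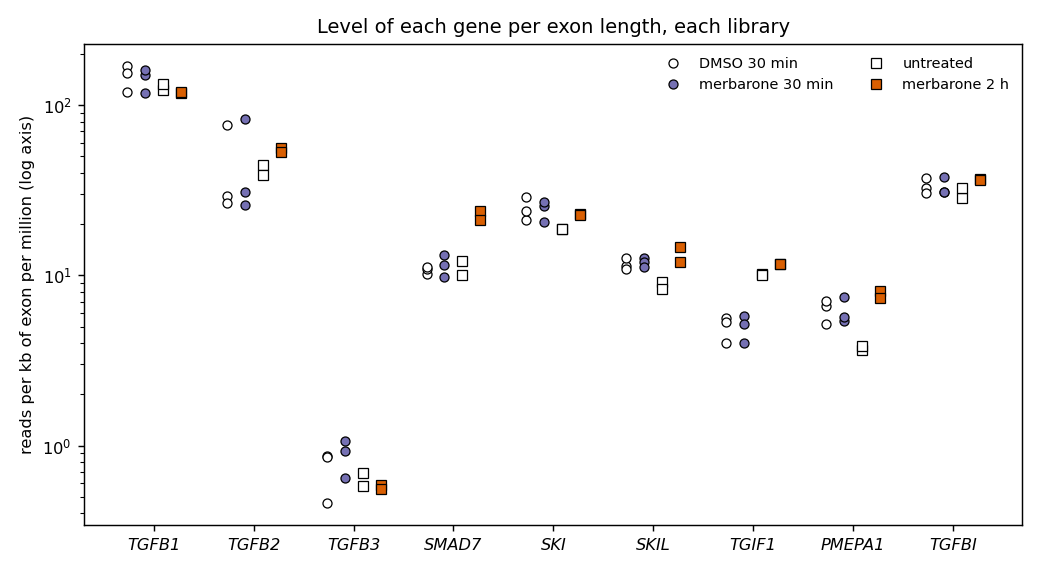
Level of each gene in each library as RPKM over the summed exon length (log axis), circles for the 30 min experiment and squares for the 2 h experiment, filled for merbarone. TGFB1, whose reads may include those of overlapping genes, lies near or above 118 in every library and TGFB3 near or below 1.06. The filled squares of SMAD7 lie beside those of SKI.

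TGFB1 encodes the ligand first isolated from platelets. It lies at chr19:41807492-41859827 (GRCh37, minus strand) and overlaps 4 genes on the plus strand, of which HNRNPUL1 alone had up to 17576 reads in a library. The labels name a strand-preserving kit but do not say that counting used the strand, so the reads of these genes cannot be told apart here. TGFB1 stood at 7.68 and 8.35 RPKM in untreated cells and at 7.38 and 7.46 after 2 h of merbarone. Its merbarone libraries were lower than both untreated ones by a small step (log2 fold change -0.10 ± 0.09, SE; adjusted p 0.498, limma). On recovered reads the ratio was 0.926 with a 95% interval from 0.798 to 1.07.

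TGFB2, at chr1:218518678-218617961 (plus strand) and free of overlapping genes, encodes the isoform long associated with the eye. It stood at 2.73 and 2.38 RPKM in untreated cells and at 3.42 and 3.25 after 2 h of merbarone. Both merbarone libraries lay above both controls. The log2(RPKM + 1) difference was 0.29 ± 0.08 with an adjusted p of 0.0540 in limma, just short of the threshold. Limma voom on recovered reads gave a 1.31-fold higher level (95% interval 1.13 to 1.52) and an adjusted p of 0.0122, so in that test TGFB2 rose. Without merbarone 2 h replicate 1 or replicate 2 neither test called it. In the 30 min experiment TGFB2 stood at 4.69, 1.80 and 1.63 RPKM in DMSO and at 5.06, 1.91 and 1.59 after merbarone. Replicate 1 of both groups was more than double the others, while within a replicate number the ratio of treated to control lay between 0.977 and 1.08.

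TGFB3, at chr14:76424440-76449354 (minus strand), overlaps IFT43 on the other strand. It had 36 to 208 reads per library, and the depth sets the limit here. It stood at 0.145 and 0.121 RPKM in untreated cells and at 0.123 and 0.117 after 2 h of merbarone, with overlapping libraries. The ratio on recovered reads was 0.905, and its interval ran from 0.608 to 1.35.

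SMAD7 binds the activated type I receptor and brings ubiquitin ligases to it, and it is the classical feedback inhibitor of the pathway. It lies at chr18:46446223-46477335 (GRCh37, minus strand) with no overlapping gene in the tables. In the 2 h experiment it stood at 1.28 and 1.56 RPKM in untreated cells (526 and 576 reads) and at 3.04 and 2.71 RPKM after merbarone (1287 and 1091 reads). Both merbarone libraries lay well above both untreated ones, and the gap between the groups was wider than the spread inside either. SMAD7 rose by a log2 fold change of 0.68 ± 0.09 on the log2(RPKM + 1) scale, with an adjusted p of 0.00167 in limma. On recovered reads the rise was 2.04-fold (95% interval 1.70 to 2.44, adjusted p 1.22e-06, limma voom). As these are bulk samples, a change in the number of cells that hold an RNA and a change in RNA per cell cannot be told apart. Without each of the 4 libraries in turn its log2 fold change ran from 0.60 to 0.77 in limma and from 0.85 to 1.19 in limma voom. Such fits leave 1 library in a group and assume that it varies like the other group. Of 11 other settings, which include those limma fits, the call of SMAD7 was lost in 1, where genes below 1 RPKM were also tested (adjusted p 0.0992).

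A palindromic SMAD-binding element, the 8 letters that SMAD3 and SMAD4 bind with high affinity, was found upstream of SMAD7. It is the one match to this motif among the 9 genes in windows from 1500 bases before to 50 after the start of the canonical transcript. The next line gives it in 5′ to 3′ direction of the gene with the element in capitals, at chr18:46478577-46478606 (GRCh37, minus strand), where position -1260 is counted from the start.
SMAD7 element: agcgacagggtGTCTAGACggccacgtgac
Of all 19356 genes searched in the same window, 0.992% held GTCTAGAC. This window was set after the SMAD7 element had been seen, so the match is not an independent finding. In promoters of 250 bases, 0 of the 8 members with a promoter held it. The 250 bases just upstream of the RefSeq start of SMAD7, at chr18:48950966-48951215 (GRCh38.p14, minus strand), are shown because they hold none of the 4 motifs searched.
SMAD7 promoter: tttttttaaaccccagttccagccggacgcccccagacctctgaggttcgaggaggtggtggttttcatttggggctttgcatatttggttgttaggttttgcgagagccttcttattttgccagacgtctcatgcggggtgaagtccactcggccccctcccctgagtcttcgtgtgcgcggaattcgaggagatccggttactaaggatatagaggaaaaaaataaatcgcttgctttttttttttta

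PMEPA1 is a membrane protein that binds SMAD2 and SMAD3 and keeps them from the receptor. It lies at chr20:56223448-56286592 (GRCh37, minus strand). Its RPKM was low, yet 263 to 634 reads stood behind each value of the 2 h experiment. It stood at 0.329 and 0.348 RPKM in untreated cells and at 0.733 and 0.673 after 2 h of merbarone. The groups were separated by several times the spread within either. PMEPA1 was below the 1 RPKM filter of the first test, and with no filter its adjusted p was 0.0816. On recovered reads it rose 2.08-fold (95% interval 1.71 to 2.52, adjusted p 2.20e-06, limma voom). Without each of the 4 libraries in turn its log2 fold change ran from 0.98 to 1.12, in fits that leave 1 library in a group.

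SKI and SKIL are related corepressors that bind the SMAD2, SMAD3 and SMAD4 complex on DNA, and SKIL is itself a fast target. SKIL (chr3:170075130-170114623, plus strand) stood at 1.90 and 1.72 RPKM in untreated cells and at 3.05 and 2.49 after 2 h of merbarone. The groups did not overlap, but the 2 merbarone libraries differed from each other by more than the untreated ones did. SKIL rose by 0.42 ± 0.09 on the log2(RPKM + 1) scale (adjusted p 0.0207, limma) and 1.52-fold on recovered reads (95% interval 1.28 to 1.80, adjusted p 7.94e-04, limma voom). Without merbarone 2 h replicate 1 the call was lost in limma (log2 fold change 0.31, adjusted p 0.216) and in limma voom (adjusted p 0.162). SKI (chr1:2158827-2241652, plus strand) stood at 1.53 and 1.53 RPKM in untreated cells and at 1.89 and 1.87 after merbarone. Its groups lay close within themselves and apart from each other (log2 fold change 0.18 ± 0.07, adjusted p 0.106, limma). The interval on recovered reads ran from 1.05 to 1.43 around a ratio of 1.22, with an adjusted p of 0.0623 in limma voom.

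The cyclic AMP response element TGACGTCA, the site of CREB and ATF proteins, was present in 2 of the 9 windows and in 3.89% of all 19356. These 2 were SKIL, 54 bases before the start, and PMEPA1, whose match spans the start from position -4. They are printed with the element in capitals, from chr3:170075438-170075467 (GRCh37, plus strand) and chr20:56285057-56285086 (GRCh37, minus strand).
SKIL element: cgaggactcggTGACGTCAgagggctgtgt
PMEPA1 element: ccgtctagcgcTGACGTCAgaccgtctgcc
PMEPA1 has another start in RefSeq, and the 250 bases before that start hold none of the 4 motifs. The 250 bases upstream of SKIL in RefSeq, at chr3:170357465-170357714 (GRCh38.p14, plus strand), show the same element as its window. This SKIL promoter is GC-rich, with a GC content of 78.4% against 48.0% for SMAD7.
SKIL promoter: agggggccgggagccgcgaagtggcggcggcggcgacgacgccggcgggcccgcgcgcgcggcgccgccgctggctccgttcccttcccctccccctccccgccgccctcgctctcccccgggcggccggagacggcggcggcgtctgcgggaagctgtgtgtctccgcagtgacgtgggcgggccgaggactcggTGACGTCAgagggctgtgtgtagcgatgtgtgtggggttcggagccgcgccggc
The CAGA box, the half-site of SMAD3 and SMAD4, was searched as CAGACA on both strands and may overlap other motifs. It was found in 5 of the 9 windows, those of TGFB1, TGFB2, SKIL, TGIF1 and PMEPA1, and in 60.2% of all windows. The window of SMAD7 held no box. SKIL held 3 copies, shown in gene direction with the box in capitals (TGTCTG where it lies on the other strand), from chr3:170074998-170075025, chr3:170075073-170075100 and chr3:170075093-170075120 (GRCh37, plus strand).
SKIL box at -494: ggcggtggcccCAGACAgccggctgggc
SKIL box at -419: agggaacatccTGTCTGcgccgggtgca
SKIL box at -399: cgggtgcaccgCAGACAgcgccgcgcgc
TGFB2 held a box 53 bases before its start, at chr1:218518614-218518641 (GRCh37, plus strand), shown because TGFB2 was the ligand with a higher level at 2 h.
TGFB2 box at -53: tttgttgaaggCAGACAcgtggttcaga
The AP-1 site, TGANTCA, was found in TGFB2 and TGIF1, 2 of 9 windows, and in 30.7% of all windows. These matches describe the letters of the reference and were not tested for binding.

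TGIF1 is a homeodomain corepressor that competes with coactivators for SMAD2. It lies at chr18:3411606-3459976 (GRCh37, plus strand). It stood at 1.77 and 1.73 RPKM in untreated cells and at 2.01 and 2.01 after 2 h of merbarone. The merbarone libraries were slightly above both controls (log2 fold change 0.13 ± 0.07, adjusted p 0.237, limma). On recovered reads the ratio was 1.15 with an interval from 0.979 to 1.35, below the ratios of SMAD7 and PMEPA1, whose intervals start at 1.70 and 1.71. The difference between genes was not tested.

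TGFBI, at chr5:135364677-135399507 (GRCh37, plus strand), encodes an adhesion protein of the extracellular matrix known from inherited dystrophies of the cornea. It stood at 6.26 and 7.23 RPKM in untreated cells and at 8.09 and 7.99 after 2 h of merbarone. The groups did not overlap, while the untreated libraries differed between themselves by more than the gap from the higher of them to merbarone. Limma gave a log2 fold change of 0.23 ± 0.10 (adjusted p 0.153). On recovered reads the ratio was 1.19 with an interval from 1.02 to 1.39 and an adjusted p of 0.109 in limma voom.

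**Figure D3:**
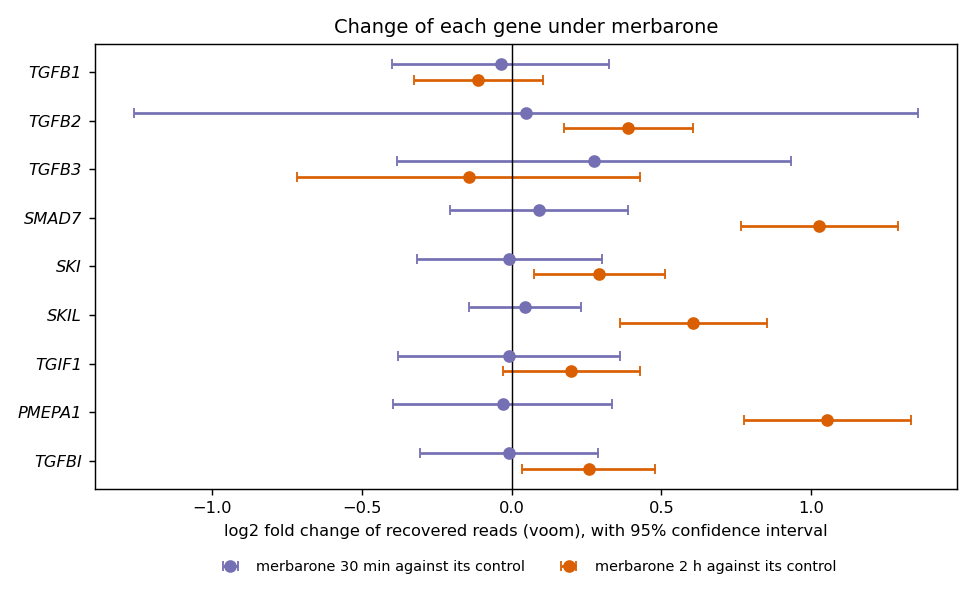
Log2 fold change of recovered reads with its 95% confidence interval (limma voom) for each gene, merbarone 30 min against DMSO and merbarone 2 h against untreated. At 2 h the intervals of SMAD7, PMEPA1, SKIL, TGFB2, SKI and TGFBI lie above 0, with adjusted p under 0.05 for the first 4, and at 30 min all 9 intervals span 0.

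After 30 min of merbarone no difference from DMSO beyond the spread between libraries was found in the 9 genes. SMAD7 stood at 1.30, 1.39 and 1.43 RPKM in DMSO and at 1.48, 1.25 and 1.69 after merbarone. Its merbarone libraries lay on both sides of the DMSO libraries. PMEPA1 stood at 0.468, 0.601 and 0.639 RPKM in DMSO and at 0.490, 0.519 and 0.674 after merbarone, and SKIL at 2.34, 2.60 and 2.27 against 2.63, 2.47 and 2.33. In both genes the groups were interleaved. The groups overlapped in all 9 genes, and 2.4% of the 14012 genes tested on reads had groups that did not.

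Several of the other genes varied more with the replicate number than with the treatment at 30 min. TGFB1 stood at 7.46, 10.6 and 9.68 RPKM in DMSO and at 7.35, 9.42 and 10.1 after merbarone. TGIF1 stood at 0.696, 0.979 and 0.927 against 0.693, 1.00 and 0.895. In both genes replicate 1 was the lowest library of each group. TGFBI was highest in replicate 1 of each group, at 8.21 RPKM in DMSO and 8.33 after merbarone, and its other libraries lay between 6.71 and 7.18. SKI ranged from 1.73 to 2.38 RPKM in DMSO and from 1.70 to 2.23 after merbarone. TGFB3 was the 1 gene higher within all 3 replicate numbers, by ratios of 1.40, 1.23 and 1.09, and its unadjusted p was 0.355 without and 0.0882 with the replicate number as a block in limma voom.

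Limma called 0 of the 6 genes it tested at 30 min, 0 of them had an unadjusted p under 0.05 (0.369% of all genes did), and voom called 0 of 9. Over all genes limma called 1 of 6500 (0.0154%) and voom 1 of 14012 (0.00714%), so few calls could be made in this comparison for any gene. With the replicate number as a block limma called 8 of 6500 genes (0.123%) and again 0 of the 6. The 95% intervals on recovered reads bound what could have been missed, and they depend on whether the replicate numbers are taken as pairs. Without the block they ran from 0.866 to 1.31 times DMSO for SMAD7 and from 0.760 to 1.26 for PMEPA1. Those of SKIL and TGFB2 ran from 0.906 to 1.17 and from 0.417 to 2.56. With the replicate number as a block in limma voom the intervals of these genes were narrower, and each still included no change. That of TGFB2 then ran from 0.977 to 1.11 and that of PMEPA1 from 0.886 to 1.10.

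The effect at 2 h was set against that at 30 min by a contrast over all 10 libraries. It tests whether the change differs, though time, kind of control and experiment cannot be told apart in it. SMAD7 was the 1 gene of 7 tested that was called, with effects that differed by 0.63 ± 0.12 on the log2(RPKM + 1) scale with an adjusted p of 0.0353 in limma, where 107 of 6558 genes (1.63%) were called. This call was fragile: it was lost in limma voom (0.95, adjusted p 0.0951), which called 0 of the 9 genes (3 of them, SMAD7, SKIL and PMEPA1, had an unadjusted p under 0.05) and 69 of 13900 in all (0.496%, with 12% under 0.05 unadjusted). It was also lost without any single library other than merbarone 30 min replicate 3, with adjusted p up to 0.188. With the replicate number as a block, limma called 3 of the 7. These were SMAD7 (adjusted p 0.00934, limma with the block), SKIL (0.0135) and TGFB2 (0.0354), in a fit that called 19.1% of all genes. The block here also pairs the 2 h libraries by number, a pairing that was not shown (correlation 0.300 over 2 pairs). PMEPA1 had a difference of 1.10 on recovered reads with an adjusted p of 0.116 in limma voom, and of 1.09 with an adjusted p of 2.05e-04 with the block.

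The 2 controls were not alike in these genes. TGIF1 stood at a mean of 1.75 RPKM in untreated cells and 0.867 in DMSO, a ratio of 2.02, and its libraries did not overlap between the experiments. PMEPA1 stood at 0.339 and 0.569, a ratio of 0.595. SKI and SKIL were lower in untreated cells by ratios of 0.755 and 0.753, and the other 5 genes lay between 0.867 and 1.03. SMAD7 was the closest to equal of the 9, at a ratio of 1.03. For PMEPA1 the 2 h merbarone libraries, 0.733 and 0.673 RPKM, lay above all 3 DMSO libraries of the other experiment, the highest of which was 0.639, but by less than they lay above their own controls. Those of SMAD7, 3.04 and 2.71 RPKM, also lay above DMSO, which reached 1.43. For SKIL, replicate 2 at 2.49 RPKM lay within the DMSO range of 2.27 to 2.60, and replicate 1 at 3.05 lay above it. Both of TGFB2, 3.42 and 3.25 RPKM, lay within the DMSO range of 1.63 to 4.69. Vehicle, depth and experiment cannot be told apart here.

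The pathway around the 9 genes was read from 4 lists with 54 genes in all. At 2 h 10 of the 14 tested among the other direct targets rose in limma and none fell, and on recovered reads 14 of 18 rose and 1 fell. Against a background of 13.1% called, 5.98% higher, limma called 14 of the 31 tested over the 4 lists, 12 higher and 2 lower. On recovered reads 52 were tested, 24 rose and 4 fell, against a background of 15.5% called, 8.82% higher. These lists were chosen with earlier results of these data known, so their counts and medians cannot show that the pathway stands out.

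Of the proteins that keep TGF-beta latent or activate it, limma tested 9 of 13 and 1 rose, while on recovered reads all 13 were tested, 6 rose and 0 fell. The gene called in both was LRRC32, which anchors latent TGF-beta at the cell surface, from 0.810 ± 0.0788 to 1.33 ± 0.122 RPKM (SD, n = 2 each), by a log2 fold change of 0.37 ± 0.07 (adjusted p 0.0113, limma). In the DMSO control of the other experiment LRRC32 stood at only 0.0661 ± 0.0146 RPKM (n = 3), so the 2 controls were unlike in it too. The other 5 that rose on recovered reads were LTBP1, LTBP2, THBS1, ITGAV and ITGB6, by log2 fold changes of 0.36 to 1.03 (adjusted p 0.0104 to 0.0381, limma voom). The median of that list was 0.15 in limma and 0.16 on recovered reads. Of the receptors limma tested 2 of 8, and TGFBR2, the type II receptor that binds the ligand, fell by 0.28 ± 0.08 on the log2 scale, from 3.23 ± 0.0813 to 2.49 ± 0.0673 RPKM (adjusted p 0.0464, limma). It missed the threshold after median scaling (adjusted p 0.0618), after quantile normalization (0.0633) and without merbarone 2 h replicate 1 (0.329) or replicate 2 (0.360). On recovered reads 7 of the 8 receptors were tested, 1 rose and 2 fell. Besides TGFBR2 these were a pair of activin type II receptors with low values: ACVR2B fell from 0.189 ± 0.0182 to 0.0749 ± 0.0149 RPKM (log2 fold change -1.34 ± 0.25, adjusted p 4.47e-04, limma voom), and ACVR2A, which overlaps another gene, rose from 0.0857 ± 0.0117 to 0.135 ± 0.0174 (0.66 ± 0.19, adjusted p 0.0207, limma voom). The type I receptor TGFBR1 stood at 1.48 ± 0.265 RPKM in untreated cells and 1.45 ± 0.0396 after merbarone.

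Among SMADs and their regulators limma tested 6 of 14, of which 1 rose and 1 fell, and on recovered reads all 14 were tested, 3 rose (BAMBI, SMURF1 and TRIM33) and 1 fell (TGIF2). BAMBI, a decoy receptor without a kinase domain and a further inhibitor of the pathway, rose from 8.88 ± 0.0107 to 16.6 ± 0.578 RPKM, by 0.83 ± 0.10 on the log2 scale (adjusted p 8.37e-04, limma). In the DMSO control of the other experiment BAMBI stood lower, at 2.84 ± 1.02 RPKM. TGIF2, a relative of TGIF1, fell by 0.30 ± 0.07 on the log2 scale, from 2.21 ± 0.0243 to 1.62 ± 0.130 RPKM (adjusted p 0.0331, limma). TGIF2 overlaps another gene, and its call was lost without merbarone 2 h replicate 1 (adjusted p 0.136) or replicate 2 (0.344). SMAD3, the main transducing SMAD of many of these targets, stood at 1.58 ± 0.0264 RPKM in untreated cells and 1.59 ± 0.00669 after merbarone.

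The list of other direct targets had a median log2 fold change of 1.02 at 2 h, against -0.05 over all genes tested. JUNB, an AP-1 subunit that overlaps another gene, rose from 11.1 ± 4.06 to 61.3 ± 6.88 RPKM (log2 fold change 2.40 ± 0.20, adjusted p 1.14e-04, limma). BHLHE40, a transcriptional repressor, rose from 15.2 ± 1.18 to 60.7 ± 4.23 RPKM (1.93 ± 0.11, adjusted p 1.74e-05, limma). KLF10, known as the TGF-beta inducible early gene, rose from 10.8 ± 0.394 to 33.0 ± 5.09 RPKM (1.52 ± 0.12, adjusted p 9.67e-05, limma). The repressors of epithelial genes SNAI1 and SNAI2 rose as well, SNAI1 from 1.79 ± 0.194 to 5.89 ± 0.856 RPKM and SNAI2 from 3.11 ± 0.218 to 5.94 ± 0.140. On the log2(RPKM + 1) scale these 5 rises ran from 0.76 for SNAI2 to 2.40 for JUNB, against 0.68 for SMAD7, and on recovered reads SNAI2, at 0.93, was below SMAD7, at 1.03. CCN2, CDKN2B, FN1 and IL11 also rose, by log2 fold changes of 0.58 to 1.29. Many genes of this list are also known to respond to serum and stress signals.

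At 30 min limma called 0 of the 32 genes of the 4 lists that it tested, and voom 0 of 52. JUNB stood at 10.2 ± 2.34 RPKM in DMSO and 26.4 ± 5.29 after merbarone (SD, n = 3 each), a log2 fold change of 1.29 ± 0.20 with an adjusted p of 0.661 in limma. With the replicate number as a block its adjusted p was 0.0188, and in that fit JUNB rose. In the contrast between the experiments KLF10, BHLHE40, SNAI1 and SNAI2 were called by limma, and KLF10 and BHLHE40 also by limma voom. With the replicate number as a block, limma called 13 of the 31 higher and 3 lower in that contrast, where it called 19.1% of all genes. That block also pairs the 2 h libraries by number, a pairing that was not shown.

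**Figure D4:**
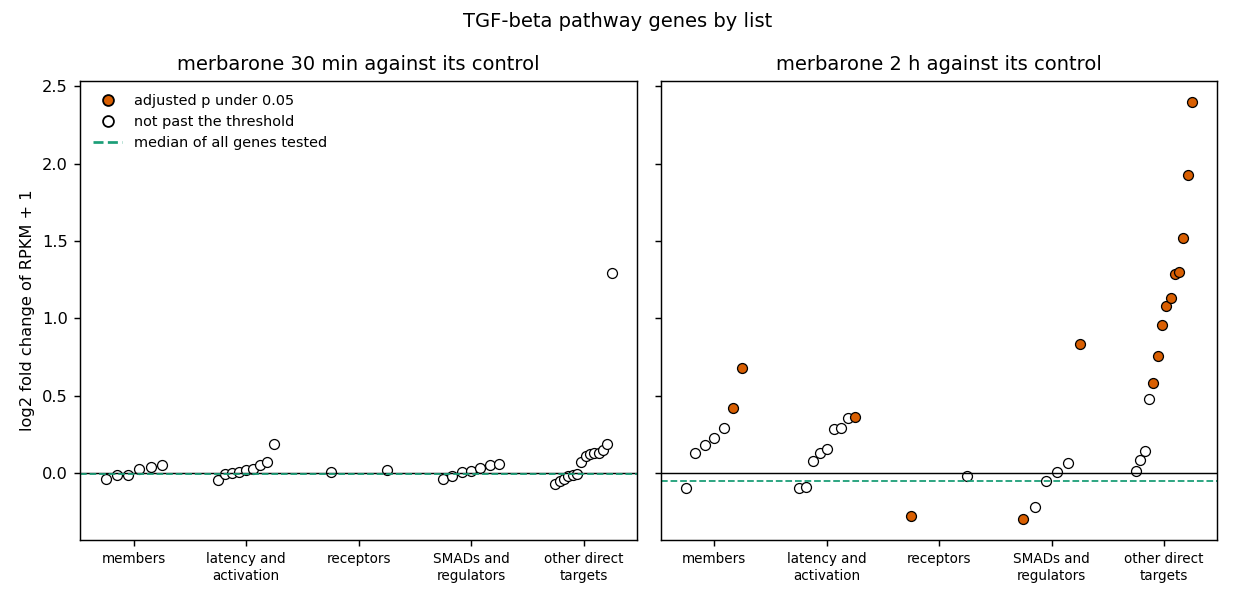
Log2 fold change of RPKM + 1 for each tested gene of the 9 and of the 4 pathway lists, at 30 min (left) and 2 h (right), filled where the adjusted p is under 0.05, with the median of all genes tested as a dashed line. At 2 h 10 of the 14 other direct targets are filled and reach 2.40, while the 2 filled members, SKIL and SMAD7, lie at 0.42 and 0.68; the open point at 1.29 in the left panel is JUNB.

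The genes closest to SMAD7 in pattern were sought over all 10 libraries by the root mean square distance between log2(RPKM + 1) deviations from the control mean of each experiment. Among 6558 genes the 3 nearest were ACKR3 at 0.0951, PPP1R3B at 0.0968 and NFKBIE at 0.101. Their log2 fold changes at 2 h were 0.60, 0.62 and 0.64. SKIL was the nearest of the other members compared, at 0.157, and TGFB2 the farthest, at 0.466. PMEPA1 and TGFB3 were below the 1 RPKM filter and were not compared. The distance of TGFB2 includes the wide spread of its 30 min libraries, 1.63 to 4.69 RPKM in DMSO.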

How the data were processed

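RNA of 10 libraries was compared within 2 experiments, with groups taken from the sample titles. Per the file headers, each library has its own deposited table, and the authors gave RPKM for each Ensembl gene in it. The submitters' processing notes name Bowtie 1.2.0, edgeR, DESeq2, deepTools 2.4.1 and GRCh37, without roles. The way reads were counted, and whether by strand, is not given in the sources used here. The gene length implied by the values lay within 1% of the GRCh37 gene span, introns included, for 74.9% of 17234 genes.

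Whole reads were recovered from the steps of the RPKM values for 17680 genes (tolerance 1e-05 reads). Tests used limma 3.58.1 (R 4.3.3), lmFit and eBayes with trend, on log2(RPKM + 1) computed from the deposited values, where the mean over the libraries of the fit was 1 RPKM or more. They were two-sided, with Benjamini-Hochberg adjustment over all genes at 0.05. A log2(RPKM + 1) difference understates the change of low genes. The alternative test was limma voom on recovered reads with TMM scaling, where the mean was 10 reads or more. Both were tested on simulated data. In the 30 min experiment, same-numbered libraries deviated together (correlations 0.925, 0.646 and 0.605), so the labels' replicate numbers were taken to pair them. Blocked values stand beside the 30 min and contrast results whose call they change. In the contrast the block also pairs the 2 h libraries by number, where no pairing was shown. Further settings were no filter or a 5 RPKM filter, a pseudocount of 0.1, median scaling, quantile normalization, and leaving out each library. Leaving out libraries in voom at 2 h was added after seeing the data.

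The 9 genes, the 4 lists and the tests were chosen with earlier results of these data known. Named beyond the 9 were, per list, the 3 largest changes among genes called at 2 h and every gene called at 30 min or in the difference, and the 3 genes nearest to SMAD7 in pattern. Genes named beyond this rule were picked after their values were seen. Python 3.11.15, NumPy 2.4.6, pandas 2.3.3 and matplotlib 3.10.9 were used. Levels per exon length divide the recovered reads of the whole gene by its summed exons. The 4 motifs (SMAD-binding element, CAGA box, AP-1 site and cyclic AMP response element) were searched on both strands of the GRCh37 reference from 1500 bases before to 50 after each canonical start. That window was set after the element of SMAD7 had been seen. Promoters of 250 bases are from RefSeq (GRCh38.p14), which matched 8 of the 9 genes.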

Additional observations from a re-analysis of the deposited data

Results flagged for a closer look

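In 5 genes, of 7 of the 9 and 31 of the pathway lists tested, the effect at 2 h differed from that at 30 min by the contrast over all 10 libraries in limma, which called 107 of 6558 genes (1.63%). SMAD7 had an effect of 0.06 at 30 min and 0.68 at 2 h, a difference of 0.63 ± 0.12 (SE) on the log2(RPKM + 1) scale (adjusted p 0.0353). BHLHE40 went from 0.13 to 1.93, a difference of 1.79 ± 0.13 (adjusted p 3.27e-04). KLF10 stood at -0.05 and 1.52, a difference of 1.57 ± 0.15 (adjusted p 0.00129). SNAI1 stood at -0.01 and 1.30, a difference of 1.31 ± 0.22 (adjusted p 0.0211). SNAI2 stood at -0.02 and 0.76, a difference of 0.77 ± 0.13 (adjusted p 0.0192). The differences of BHLHE40 and KLF10 were called in 18 of 18 alternatives each, that of SNAI1 in 10 of 17, that of SNAI2 in 12 of 17 and that of SMAD7 in 4 of 17.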

How the results depend on the processing

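The depth of the 2 h libraries limits TGFB3 (36 to 48 reads), and 2 libraries a group limit every 2 h test; fits that leave 1 library in a group assume that it varies like the other group. SMAD7 at 2 h was called in 10 of 11 alternatives (log2 fold change 0.60 to 1.03), SKIL in 9 of 11 (0.31 to 0.61) and TGFB2 in 5 of 11 (0.22 to 0.39). The cause of the changes below was not tested.

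Of all genes, limma called 866 at 2 h, 53 with no filter, 397 at 5 RPKM or more, 2129 with the replicate block, 2079 with voom, 3564 with voom and the block, and 328 to 2464 without 1 library (2464 without untreated replicate 1, 1311 without untreated replicate 2, 328 and 398 without merbarone 2 h replicate 1 and 2). At 30 min it called 1, then 0, 2, 8, 1 and 13 in the same order, 2 after median scaling or quantile normalization, and 0 to 2 without 1 library. In the difference it called 107, then 361, 36, 1255, 69 and 2112, and 38 to 86 without 1 library. Of the 9 genes, 2 were called at 2 h, 0 with no filter or at 5 RPKM or more, 4 with the block or voom, 6 with both, and 1 to 3 without 1 library. In the difference 1 was called, 0 with a pseudocount of 0.1, no filter, 5 RPKM or more, quantile normalization or voom, 3 with the block, 5 with voom and the block, and 0 to 1 without 1 library. Of the pathway lists 14 were called at 2 h, 2 with no filter, 8 at 5 RPKM or more, 28 with voom and 30 with voom and the block. Numbers did not show a pairing at 2 h, where same-numbered libraries correlated at 0.300 over 2 pairs; the block added calls of TGFB2 (adjusted p 0.00265) and SKI (0.0375) in limma but left 1 residual degree of freedom there, so its calls lean on the spread of other genes.

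Signs changed in values near 0 at 30 min: SKI to 0.000475 with median scaling, TGFBI to 0.00207 with median scaling and 0.000727 with quantile normalization. Without 1 library, log2 fold changes at 30 min ran from -0.172 to 0.0812 for TGFB1, -0.34 to 0.40 for TGFB2, -0.00636 to 0.122 for SMAD7, -0.0800 to 0.0728 for SKI, -0.00198 to 0.0708 for SKIL, -0.0949 to 0.0617 for TGFBI, -0.0760 to 0.0930 for TGFBR2, -0.186 to 0.258 for BAMBI, -0.136 to 0.122 for SNAI1 and -0.106 to 0.0372 for SNAI2. In the difference they ran from -0.179 to 0.0736 for TGFB1, which was 0.0112 after quantile normalization, and from -0.11 to 0.63 for TGFB2.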
